A study of Mus musculus with 16 samples.

Results

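The paralogs of the mouse Mir17 cluster were followed in extracellular vesicles (EVs) of bone marrow plasma. They are 9 mature microRNAs, found by name among the 1915 entries of the count table: 6 from the miR-106b/miR-25 cluster (mmu-miR-106b-5p, mmu-miR-106b-3p, mmu-miR-93-5p, mmu-miR-93-3p, mmu-miR-25-3p and mmu-miR-25-5p) and 3 from the miR-106a/miR-363 cluster (mmu-miR-106a-5p, mmu-miR-20b-5p and mmu-miR-363-3p). All 9 were detected in every library and were among the 234 entries abundant enough to be tested. The mice were C57BL/6N, 6 months old, and all carried the CAGS-Snorkel reporter, whose HA tag was used to capture EVs on antibody-coated magnetic beads. In 6 mice, 3 of each sex, the genotype was CAGS-Snorkel//Ocn-Cre, with Cre driven by the osteocalcin promoter, active in mature osteoblasts and osteocytes. In 10 mice, 5 of each sex, it was CAGS-Snorkel//Prx1-Cre, with Cre active in early limb mesenchyme and its descendants, osteoblasts among them, so the cells that the drivers mark overlap. The groups are called Ocn and Prx1. Plasma from mice without Cre and EVs that the beads did not hold were not analysed here.

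Each primary transcript of a cluster is cut into several hairpins, and each hairpin gives a 5p and a 3p mature strand, of which usually one, the guide, is kept in an Argonaute protein while the other, the passenger, is degraded. Bases 2 to 8 of a strand, the seed, pair with target mRNAs. MicroRNAs with the miR-17 seed are known as repressors of cell cycle inhibitors such as Cdkn1a, and miR-25 as a repressor of the pro-apoptotic gene Bcl2l11. The miR-106b/miR-25 cluster is widely expressed in proliferating cells and blood progenitors, whereas the miR-106a/miR-363 cluster is usually low in adult tissue.

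The mature sequences show how close the paralogs are, with the seed in capitals. Sequences are from RefSeq (GRCm38.p6), in which all 9 matched, and run 5′ to 3′. The first 4 share the seed AAAGUGC with miR-17-5p and miR-20a-5p, which come from the Mir17hg transcript on chromosome 14 and are not members.
miR-106b-5p: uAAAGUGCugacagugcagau
miR-93-5p: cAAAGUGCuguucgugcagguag
miR-106a-5p: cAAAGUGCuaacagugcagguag
miR-20b-5p: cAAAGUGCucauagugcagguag
miR-17-5p: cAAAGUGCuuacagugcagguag
miR-20a-5p: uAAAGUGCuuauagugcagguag

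miR-25-3p and miR-363-3p share the seed AUUGCAC with miR-92a-3p, which is encoded on chromosome 14 and on the X chromosome.
miR-25-3p: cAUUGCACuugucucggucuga
miR-363-3p: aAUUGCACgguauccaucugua
miR-92a-3p: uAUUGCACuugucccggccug

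The opposite strands of the miR-106b/miR-25 hairpins have seeds that no other entry with a RefSeq sequence shares.
miR-106b-3p: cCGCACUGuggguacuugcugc
miR-93-3p: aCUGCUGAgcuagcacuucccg
miR-25-5p: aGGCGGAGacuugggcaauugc

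Counted from 1 at the 5′ end, miR-106a-5p differs from miR-17-5p by the single substitution A10U (the base of miR-106a-5p is given first). Over the 21 bases that both have, miR-106b-5p differs from miR-17-5p by U1C, G10U and A20G. miR-20b-5p differs from miR-20a-5p by C1U and C10U, and miR-25-3p from miR-92a-3p by C1U, U14C and U18C over 21 bases. How reads that fit several of these entries were assigned is not given in the sources used here, so the values of miR-106a-5p and miR-20b-5p beside their abundant relatives are uncertain.

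On GRCm38 (mm10) the 3 hairpins of the miR-106b/miR-25 cluster lie within 498 bases of the minus strand of chromosome 5, in intron 13 of Mcm7, a gene for a subunit of the replicative helicase, counted on a transcript of 15 exons. Mir106b is at chr5:138165737-138165818, Mir93 at chr5:138165523-138165610 and Mir25 at chr5:138165321-138165404. The 6 hairpins of the miR-106a/miR-363 cluster span 875 bases of the minus strand of the X chromosome, from Mir106a at chrX:52742503-52742567 through Mir20b at chrX:52742113-52742192 to Mir363 at chrX:52741693-52741767, and no annotated gene on that strand contains them.

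miR-25-3p and miR-93-5p made up 89.2% ± 1.11 of the paralogs' counts in Ocn and 87.2% ± 1.91 in Prx1, and the 6 members of miR-106b/miR-25 far exceeded the 3 of miR-106a/miR-363 in each library. The members' share of all counts was 2.09% ± 0.177 across the Ocn libraries, against 2.06% ± 0.207 across the Prx1 libraries (SD, n = 6 and 10) for miR-106b/miR-25. For the 3 members of miR-106a/miR-363 it was 0.0113% ± 0.00172 in Ocn and 0.00848% ± 0.00215 in Prx1. The ratio of these sums ran from 152 to 234 in Ocn and from 180 to 388 in Prx1. The X-linked cluster also encodes miR-18b-5p, which is not a member: with it the share was 0.0233% ± 0.00367 in Ocn and 0.0188% ± 0.00433 in Prx1, and the ratio ran from 69.6 to 115 in Ocn and from 80.0 to 169 in Prx1. miR-19b-3p and miR-92a-3p, which Mir17hg encodes too, are in none of these sums. Levels below are counts scaled to the library total and given as CPM. Each read covers a whole mature strand, here of 21 to 23 bases, so no length correction was applied, but adaptor ligation can favour some sequences, which limits comparisons between different microRNAs.

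**Figure D1:**
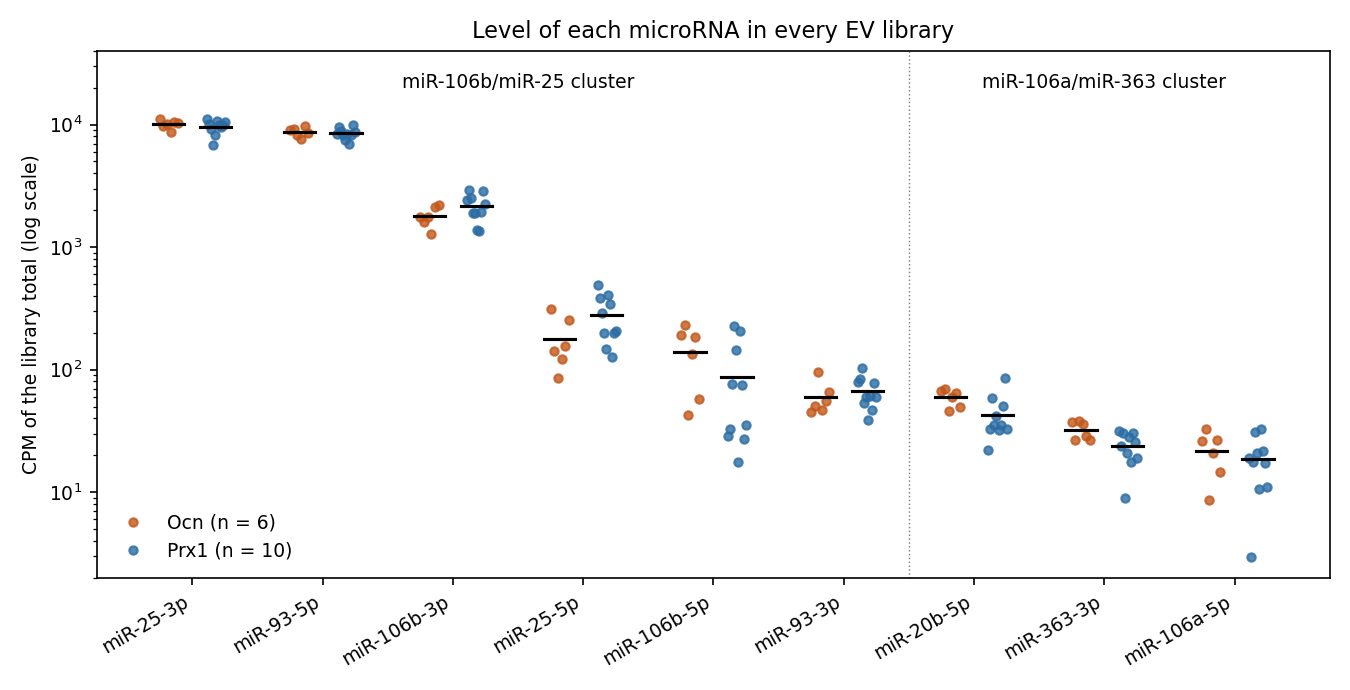
CPM of each microRNA (log scale) in every EV library, Ocn to the left of Prx1, ordered by level within each cluster. Points are libraries and black bars are group means. miR-25-3p and miR-93-5p lie near the top of the scale with little scatter, and miR-106b-5p spreads from 17.8 to 232 CPM.

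In order of level, miR-25-3p stood above miR-93-5p in 14 of 16 libraries, with overlapping ranges. Both stood above miR-106b-3p, and miR-106b-3p above miR-25-5p, in 16 of 16 libraries with no overlap in either group. Below these, in the order miR-25-5p, miR-106b-5p, miR-93-3p and miR-20b-5p, each pair of neighbours overlapped in both groups, while miR-25-5p lay above miR-20b-5p in 16 of 16 libraries with no overlap. miR-20b-5p was above miR-363-3p in 15 of 16 libraries, and miR-363-3p above miR-106a-5p in 12.

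No paralog passed the threshold between the genotypes. The quasi-likelihood test of edgeR, adjusted over all 234 entries with a threshold of 0.05, called 0 of the 9, against 13.7% of all entries tested (5.98% higher and 7.69% lower in Ocn). DESeq2 called 0 of the 9 as well, and 42 of all 234 entries. With limma voom 1 of the 9 and 48 of the 234 were called. The exact permutation test, adjusted over all entries, called 0 of the 9 and 23 entries in all. At an unadjusted edgeR p under 0.05 stood 1 of the 9, miR-25-5p, against 62 entries, 26.5%, of all. The median log2 fold change, Ocn over Prx1, was 0.03 over the members and 0.01 over all entries, with 6 members above 0 and 3 below. For 0 of the 9 were the groups' CPM ranges apart, against 3.85% of all entries. In such samples, fewer vesicles of a cell type cannot be told apart from less of a microRNA in each.

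**Figure D2:**
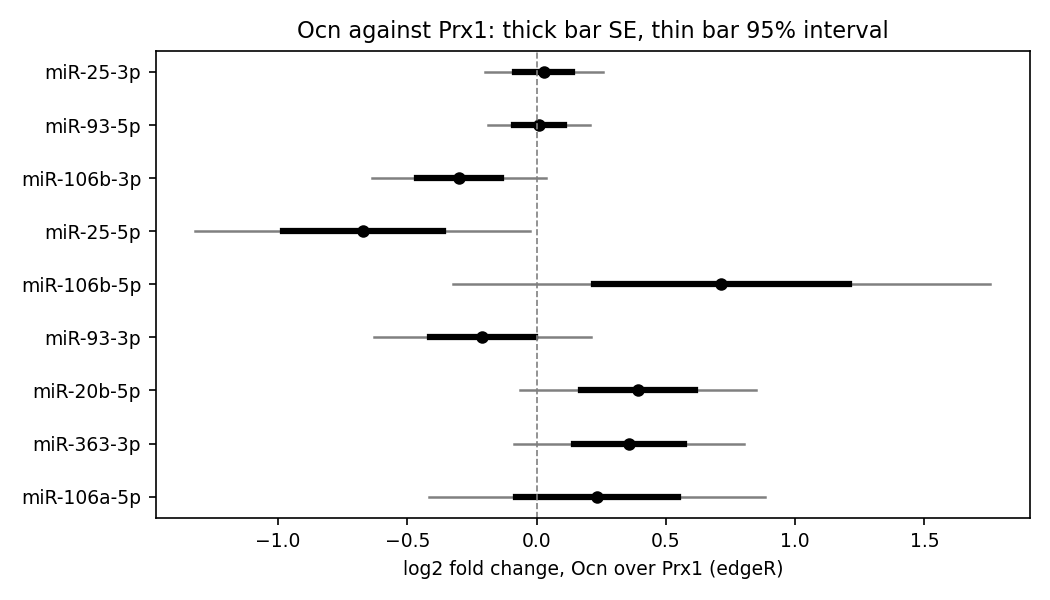
Log2 fold change, Ocn over Prx1, of the 9 microRNAs from edgeR, with the SE (thick bars) and the 95% interval (thin bars). Only the interval of miR-25-5p lies wholly on one side of 0, before adjustment, and those of miR-93-5p and miR-25-3p are the narrowest of the 9.

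The abundant strands with a family seed had nearly equal levels in both genotypes. miR-93-5p ran from 7607 to 9779 CPM in Ocn with a median of 8732, and from 6973 to 9935 CPM in Prx1 with a median of 8379. The ranges overlapped almost wholly. Its log2 fold change was 0.01 (SE 0.10, edgeR adjusted p = 0.936), with a 95% interval of the fold of 0.878 to 1.16. miR-25-3p ran from 8640 to 11081 CPM in Ocn with a median of 10148, and from 6863 to 11187 CPM in Prx1 with a median of 9874. The Prx1 libraries 4 and 5 were the lowest of all 16. Its log2 fold change was 0.03 (SE 0.11, edgeR adjusted p = 0.879), with a 95% interval of the fold of 0.870 to 1.19. The sign of both log2 fold changes turned under some alternative settings, so neither has a stable direction.

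miR-106b-5p, cut from the same transcript as those strands, varied most of the 9 between libraries. In Ocn it had 191 CPM in library 1, 232 in library 2, 42.9 in library 3, 134 in library 4, 184 in library 5 and 57.3 in library 6. In Prx1 it ran from 17.8 to 226 CPM with a median of 55.5, and libraries 4, 5 and 7, at 226, 145 and 206 CPM, stood above the 7 others, which had at most 76.0 CPM. High and low libraries thus occurred in both groups, and the ranges overlapped. The low values rest on few counts: 5 in Prx1 library 6, for which the 95% Poisson interval was 5.77 to 41.4 CPM. The means were 140 ± 76.7 CPM across the Ocn libraries, against 87.0 ± 77.9 CPM across the Prx1 libraries (SD, n = 6 and 10). The log2 fold change was 0.71 (SE 0.49, 95% interval -0.32 to 1.75, edgeR adjusted p = 0.355). With limma voom and library quality weights it was 1.39 (SE 0.40, adjusted p = 0.0180), so the call depended on the tool.

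The 3 strands of the miR-106b/miR-25 transcript that carry a family seed differed widely in their spread within groups. The pooled within-group SD of log2 CPM was 1.19 for miR-106b-5p, the 4th highest of the 234 entries, and none of the 61 entries within 2-fold of its mean level was more variable. For miR-93-5p it was 0.12, rank 233 of 234, and all 22 entries of like level were more variable. It was 0.19 for miR-25-3p, rank 217, and the median over all entries was 0.38. Of the 6 detected microRNAs with the AAAGUGC seed, miR-106a-5p (0.83) and miR-17-5p (0.71) also stood among the 20 most variable entries, while miR-20b-5p (0.44) and miR-20a-5p (0.17) did not. For miR-106a-5p, 7 of the 42 entries of like level were more variable. It had only 1 to 14 counts per Prx1 library and 5 to 41 per Ocn library, so counting error adds to its spread.

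Each opposite strand of the miR-106b/miR-25 hairpins had a lower median in Ocn, with the largest log2 fold change in size at miR-25-5p. miR-25-5p ran from 85.8 to 310 CPM in Ocn with a median of 149, and from 127 to 493.02 CPM in Prx1 with a median of 248. The ranges overlapped, with 8 of 10 Prx1 libraries above the Ocn mean and 1 of 6 Ocn libraries above the Prx1 mean. The log2 fold change was -0.67 (SE 0.31, edgeR p = 0.0425, adjusted p = 0.169), and the exact permutation test over every split of the libraries gave p = 0.0805 (adjusted p = 0.254). Depth moved with genotype. With the log10 total as a covariate the log2 fold change was -0.02, with a wider error (SE 0.435, edgeR adjusted p = 0.987). With every library thinned to 225273 counts it was -0.60 (SE 0.29, edgeR adjusted p = 0.178).

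miR-106b-3p, the opposite strand of the variable miR-106b-5p, ran from 1269 to 2202 CPM in Ocn with a median of 1765, and from 1349 to 2930 CPM in Prx1 with a median of 2086. The ranges overlapped and the log2 fold change was -0.30 (SE 0.16, edgeR adjusted p = 0.231). miR-93-3p averaged 60.0 ± 19.2 CPM across the Ocn libraries, against 66.4 ± 19.4 CPM across the Prx1 libraries (SD, n = 6 and 10), with a log2 fold change of -0.21 (SE 0.20, edgeR adjusted p = 0.556).

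The miR-106a/miR-363 members were all scarce, with at most 99 counts in any library, and their mean CPM was higher in Ocn, though for miR-106a-5p and miR-20b-5p the sign turned with depth as a covariate. miR-20b-5p ran from 46.3 to 69.5 CPM in Ocn with a median of 62.2, and from 22.3 to 84.8 CPM in Prx1 with a median of 35.5. All 6 Ocn libraries were above the Prx1 mean, and 1 Prx1 library, number 9, was above the Ocn mean and above every Ocn library. The log2 fold change was 0.39 (SE 0.22, edgeR adjusted p = 0.242; exact permutation p = 0.0311, adjusted p = 0.147). Without Prx1 library 9, the deepest of Prx1 at 813770 counts, it was 0.63 (SE 0.19, edgeR adjusted p = 0.0311), which passed the threshold. With the log10 total as a covariate it was -0.21 (SE 0.27, edgeR adjusted p = 0.722). With thinned counts it was 0.29 (SE 0.28, edgeR adjusted p = 0.553). The level of miR-20b-5p rose with the library total, with a rho of 0.87 over 16 libraries, 0.54 within Ocn and 0.73 within Prx1.

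miR-363-3p, which carries the miR-25 seed, ran from 26.4 to 37.8 CPM in Ocn with a median of 32.4, and from 8.88 to 31.8 CPM in Prx1 with a median of 24.8. All 6 Ocn libraries were above the Prx1 mean and 0 of 10 Prx1 libraries were above the Ocn mean, but the ranges overlapped. The log2 fold change was 0.36 (SE 0.21, edgeR adjusted p = 0.279; exact permutation p = 0.0405, adjusted p = 0.163). miR-106a-5p averaged 21.6 ± 8.75 CPM across the Ocn libraries, against 18.5 ± 9.11 CPM across the Prx1 libraries (SD, n = 6 and 10), with a log2 fold change of 0.23 (SE 0.31, edgeR adjusted p = 0.702), which was -0.12 with the log10 total as a covariate. After thinning it was too scarce to be tested. Its lowest value, 2.98 CPM in Prx1 library 2, was a single count, with a 95% Poisson interval of 0.0754 to 16.6 CPM.

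Of 7 other strands with an entry that the X-linked cluster alone encodes, 1 was abundant enough to be tested. That one, miR-18b-5p, had a higher mean than any of the 3 members and averaged 120 ± 22.7 CPM across the Ocn libraries, against 103 ± 28.8 CPM across the Prx1 libraries (SD, n = 6 and 10), with a log2 fold change of 0.19 (SE 0.19, edgeR adjusted p = 0.570). The 6 others were nearly absent. Over all 16 libraries miR-106a-3p and miR-19b-2-5p had 0 counts, miR-20b-3p had 2, miR-92a-2-5p had 4, miR-363-5p had 8 and miR-18b-3p had 16.

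The hairpins of the miR-106b/miR-25 cluster differed in which strand was counted. The miR-106b hairpin is shown because its 3p strand, not the strand with the miR-17 seed, was the one counted most. Its mature strands are in capitals, 5p first.
miR-106b hairpin: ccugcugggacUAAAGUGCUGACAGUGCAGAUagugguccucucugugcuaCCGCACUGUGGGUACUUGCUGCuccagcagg

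Of the counts from both strands of miR-106b, the 5p strand held 7.49% ± 4.19 across the Ocn libraries, against 4.38% ± 4.47 across the Prx1 libraries (SD, n = 6 and 10). The 3p strand exceeded it in all 16 libraries, by 6.85- to 41.0-fold in Ocn and 6.56- to 106.05-fold in Prx1. At miR-93 the 5p strand held 99.3% ± 0.246 in Ocn and 99.2% ± 0.201 in Prx1. At miR-25 the 5p strand held 1.72% ± 0.712 in Ocn, with a range of 0.845% to 2.72%, and 2.78% ± 0.974 in Prx1, with a range of 1.30% to 4.22%. The miR-93 hairpin was thus read almost wholly from its 5p strand, and the other two mainly from the 3p strand.

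**Figure D3:**
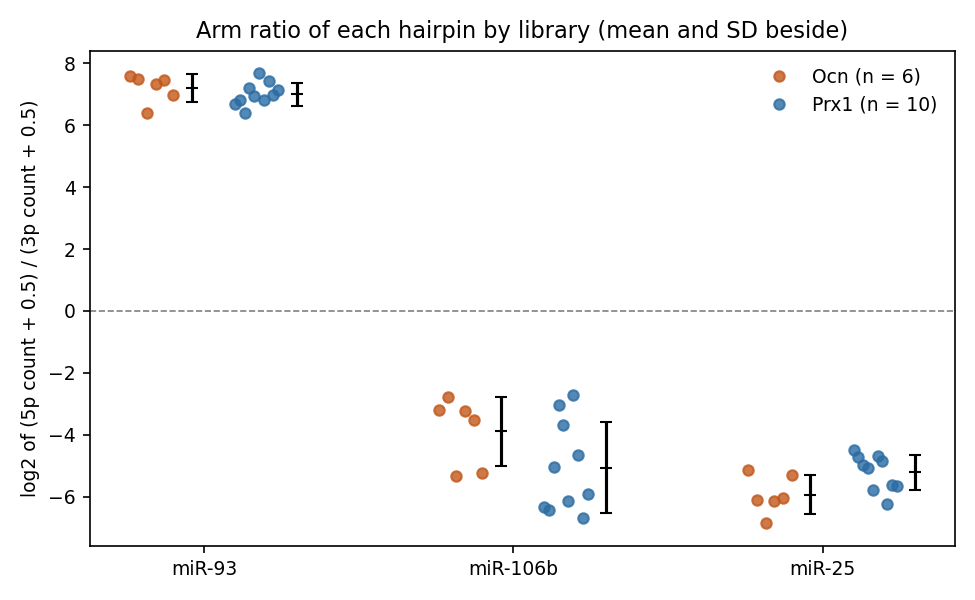
Log2 of the 5p over the 3p count (0.5 was added to both) for the hairpins miR-93, miR-106b and miR-25 in every library, Ocn to the left of Prx1. Points are libraries and the bars beside them give the mean and SD. miR-93 lies above 0 and the others below 0 in all 16 libraries, and miR-106b scatters most.

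Strand usage was compared with limma on that log2 ratio, adjusted over the 44 hairpins with both strands tested, of which 6.82% passed. None of the 3 hairpins passed. The difference in the log2 ratio, Ocn minus Prx1, was -0.73 at miR-25 (SE 0.29, p = 0.0208, adjusted p = 0.115), with 95% interval -1.33 to -0.12. It was 1.1798 at miR-106b (SE 0.61, adjusted p = 0.245) and 0.21 at miR-93 (SE 0.22, adjusted p = 0.541). With the log10 total as a covariate, the miR-25 difference was -0.19, with a wider error (SE 0.42, limma adjusted p = 0.911). With thinned counts it was -0.57 (SE 0.31, limma adjusted p = 0.195).

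Each seed family was dominated by one or a pair of its microRNAs. miR-93-5p held 84.6% ± 2.09 of the counts with the AAAGUGC seed across the Ocn libraries, against 86.5% ± 5.47 across the Prx1 libraries (SD, n = 6 and 10). The 4 members of that family held 86.7% ± 1.74 in Ocn and 88.1% ± 4.62 in Prx1, so miR-17-5p and miR-20a-5p together held the small remainder. miR-25-3p held 53.5% ± 3.96 of the counts with the AUUGCAC seed in Ocn and 50.3% ± 2.18 in Prx1, next to 45.9% ± 3.97 and 49.2% ± 2.15 for miR-92a-3p in the same groups. miR-363-3p held 0.172% of that family in Ocn and 0.123% in Prx1. The summed level of the AAAGUGC family was 10320 ± 1001 CPM in Ocn, against 9762 ± 712 CPM in Prx1, and that of the AUUGCAC family was 18874 ± 2105 CPM in Ocn and 19071 ± 2187 CPM in Prx1.

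**Figure D4:**
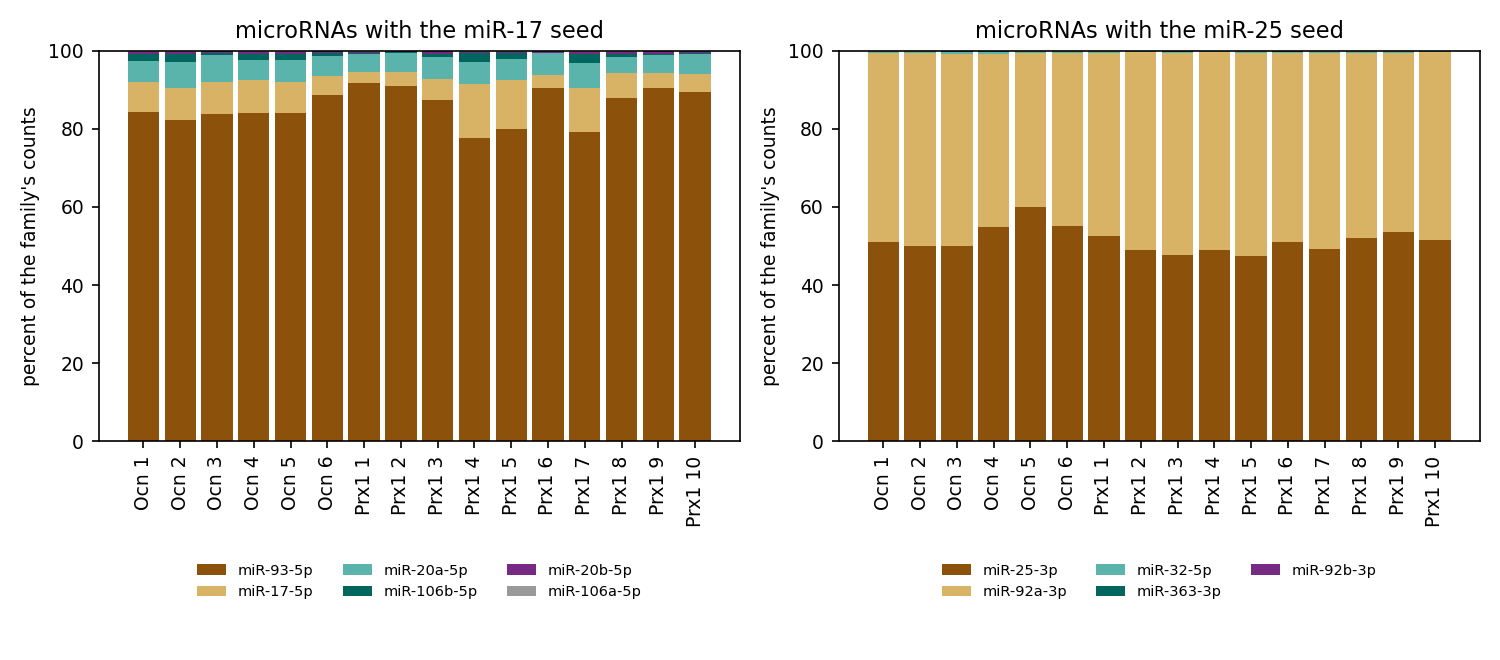
Share of each detected microRNA in the counts of its seed family, by library, for the seed of miR-17 (left) and of miR-25 (right). miR-93-5p holds from 77.6% to 91.9% of the first family, and miR-25-3p and miR-92a-3p share the second almost evenly.

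The 3 seed-sharing strands of the miR-106b/miR-25 transcript, of which miR-106b-5p is the minor strand of its hairpin in these libraries, were also compared across libraries. Over 16 libraries, none of the 3 pairs correlated past the threshold on log2 CPM after adjustment over the 3 pairs. For miR-106b-5p and miR-93-5p, Pearson's r was -0.39 (permutation p = 0.140, adjusted p = 0.182) and Spearman's rho -0.28 (permutation p = 0.302, adjusted p = 0.302). Without the 2 libraries farthest from the median r was -0.53. Within the 10 Prx1 libraries r was -0.80 (permutation p = 0.00526, adjusted p = 0.0158) and rho -0.82 (permutation p = 0.00556, adjusted p = 0.0167), and r was -0.71 without the 2 farthest. Within the 6 Ocn libraries r was 0.70 (exact permutation p = 0.161, adjusted p = 0.346) and rho 0.71 (exact permutation p = 0.136, adjusted p = 0.356), and r was 0.87 without the 2 farthest. The difference between the groups was not tested.

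For miR-106b-5p and miR-25-3p over 16 libraries r was -0.50 (permutation p = 0.0389, adjusted p = 0.117) and rho -0.44 (permutation p = 0.0875, adjusted p = 0.212), with r = -0.47 without the 2 farthest. For miR-93-5p and miR-25-3p r was 0.36 (permutation p = 0.182, adjusted p = 0.182) and rho 0.39 (permutation p = 0.141, adjusted p = 0.212), with r = 0.55 without the 2 farthest. Within the 10 Prx1 libraries, r was -0.72 for miR-106b-5p and miR-25-3p (permutation p = 0.0187, adjusted p = 0.0280; rho -0.60, permutation p = 0.0724, adjusted p = 0.109) and 0.34 for miR-93-5p and miR-25-3p (permutation p = 0.334, adjusted p = 0.334; rho 0.39, permutation p = 0.261, adjusted p = 0.261). Without the 2 farthest libraries these r were -0.82 and 0.62. Within the 6 Ocn libraries r was 0.08 for miR-106b-5p and miR-25-3p (exact permutation p = 0.842, adjusted p = 0.842; rho 0.54, exact permutation p = 0.297, adjusted p = 0.356), and 0.29 without the 2 farthest. For miR-93-5p and miR-25-3p in Ocn it was 0.52 (exact permutation p = 0.231, adjusted p = 0.346; rho 0.49, exact permutation p = 0.356, adjusted p = 0.356), and -0.71 without the 2 farthest, so its sign rests on those libraries. The CPM values of a library share its total, so a microRNA that takes up many counts lowers the CPM of the others. miR-106b-5p had at most 232 CPM, miR-93-5p at most 9935 and miR-25-3p at most 11187. Whether the shared total had a part in these correlations, which used TMM-scaled CPM, was not tested.

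The entries most like each of these 3 strands were ranked among the other 233 by Spearman's rho of log2 CPM over 16 libraries, centred on the group mean and given as a description. For miR-106b-5p they were miR-139-5p (rho 0.95), miR-17-5p (0.88) and miR-18a-5p (0.85), and miR-106a-5p came 4th (0.83). Its own opposite strand miR-106b-3p came 215th (-0.43) and miR-20a-5p, of the same seed, 47th (0.26). For miR-93-5p they were miR-106b-3p (0.69), miR-18a-3p (0.62) and miR-326-3p (0.61). Of these, miR-106b-3p and miR-326-3p had a rho of only 0.26 and 0.14 within Ocn, against 0.81 and 0.62 within Prx1. miR-18a-3p had 0.77 within Ocn and 0.71 within Prx1. For miR-25-3p they were miR-139-3p (0.78), miR-25-5p (0.73) and miR-6240 (0.72), and miR-92a-3p came 14th (0.54).

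**Figure D5:**
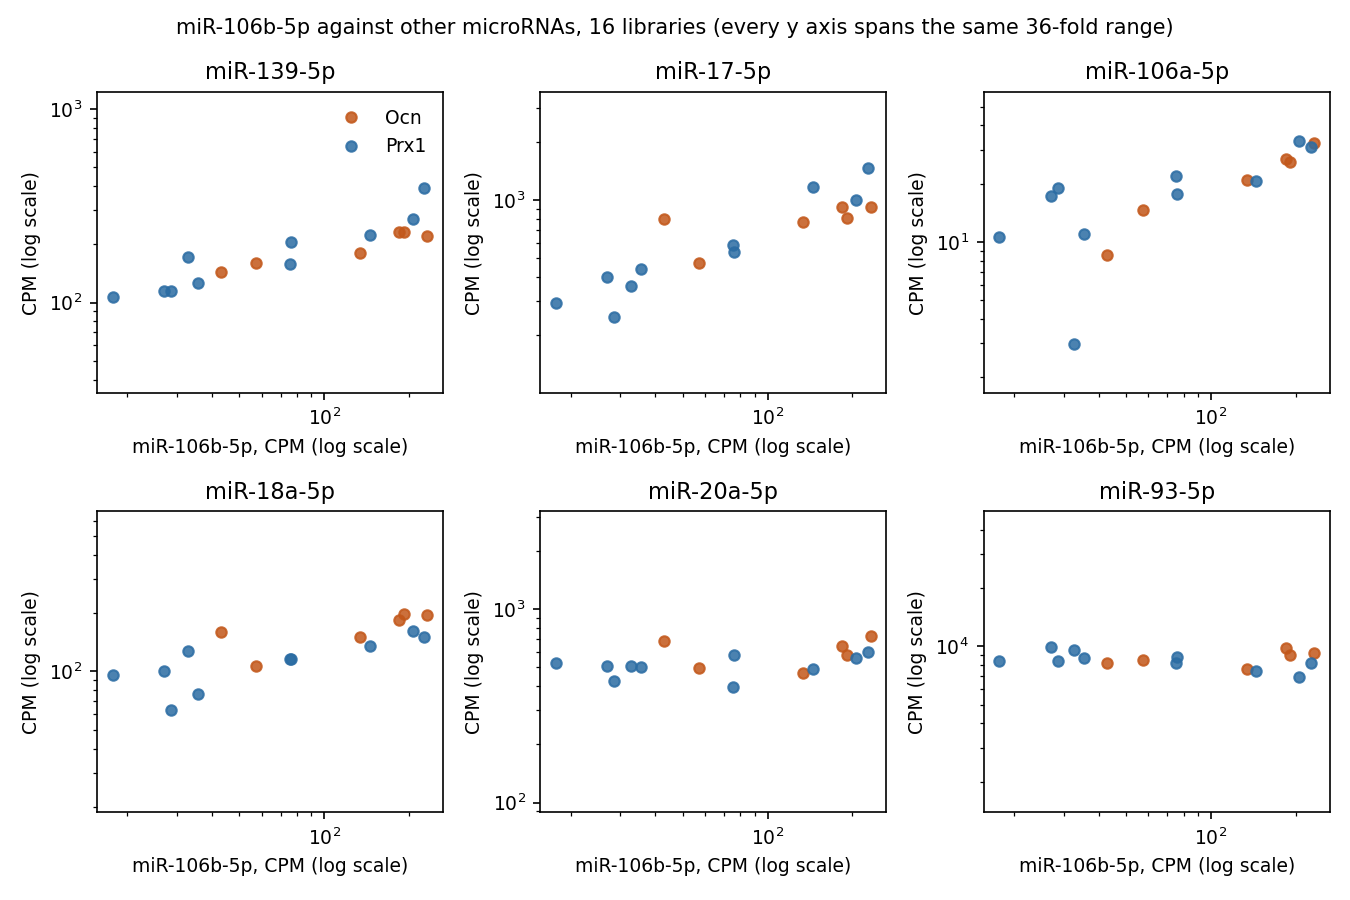
CPM of miR-106b-5p in each of 16 libraries against that of 6 other microRNAs (log scales, every y axis spanning the same fold range), with Ocn and Prx1 in different colours. miR-139-5p, miR-17-5p, miR-106a-5p and miR-18a-5p climb with miR-106b-5p, while miR-20a-5p and miR-93-5p change little on this fold range. Within Prx1 miR-93-5p was nonetheless lower where miR-106b-5p was higher (r -0.80).

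miR-106b-5p and 3 of the 4 entries ranked most like it share a run of letters. The sequences are shown for the shared letters ACAGUGCA, here in capitals in place of the seed, and the search was made after the likeness was seen.
miR-106b-5p: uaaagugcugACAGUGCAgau
miR-17-5p: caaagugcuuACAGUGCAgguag
miR-106a-5p: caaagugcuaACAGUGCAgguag
miR-139-5p: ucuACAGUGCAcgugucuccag

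Of the 204 tested entries with a RefSeq sequence, these 4 hold ACAGUGCA (1.96%, searched on the mature strand). Of all 1679 mature mouse sequences of RefSeq, 0.298% hold it. The letters were taken from entries already ranked as most like miR-106b-5p, so these shares and the ranks below are no test. miR-106b-5p, miR-17-5p and miR-106a-5p are only 1 to 3 substitutions apart over the bases they share, so they are not separate cases. In likeness to miR-106b-5p, miR-139-5p, miR-17-5p and miR-106a-5p had ranks 1, 2 and 4, and miR-18a-5p, at rank 3, does not hold it. The letters lie at positions 11 to 18 of miR-106b-5p, miR-17-5p and miR-106a-5p, and at positions 4 to 11 of miR-139-5p, where they overlap a different seed. miR-20a-5p, miR-20b-5p and miR-93-5p share the seed of miR-106b-5p and lack ACAGUGCA. miR-17-5p had 1465, 1167 and 1006 CPM in the Prx1 libraries 4, 5 and 7, in which miR-106b-5p was high, and at most 585 CPM in the 7 others. miR-139-5p had 391, 222 and 269 CPM in those 3 libraries and at most 205 CPM in the others. Whether the shared letters have a part in the likeness was not tested.

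Among 14 relatives from Mir17hg or with a member's seed, 10 were tested and 2 passed, against 13.7% of all entries. miR-19b-3p, which Mir17hg and the X-linked cluster both encode, as they do miR-92a-3p, was higher in Ocn (log2 fold change 0.65, SE 0.18, edgeR adjusted p = 0.0180), and miR-18a-3p, from Mir17hg, was lower (-0.96, SE 0.18, edgeR adjusted p = 0.00125). The relatives with a member's seed did not pass. miR-17-5p averaged 781 ± 163 CPM across the Ocn libraries, against 651 ± 415 CPM across the Prx1 libraries (SD, n = 6 and 10), with a log2 fold change of 0.23 (SE 0.33, edgeR adjusted p = 0.707). miR-20a-5p averaged 599 ± 103 CPM in Ocn and 509 ± 64.6 CPM in Prx1 (log2 fold change 0.20, SE 0.11, edgeR adjusted p = 0.237). miR-92a-3p averaged 8706 ± 1576 CPM in Ocn and 9375 ± 1053 CPM in Prx1 (log2 fold change -0.14, SE 0.12, edgeR adjusted p = 0.464). miR-32-5p averaged 82.8 ± 19.4 CPM in Ocn and 62.0 ± 16.1 CPM in Prx1 (log2 fold change 0.38, SE 0.18, edgeR adjusted p = 0.182). The median over the 10 was 0.22, against 0.01 over all entries.

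Library totals ranged from 582660 to 1536421 counts for Ocn, against 225273 to 813770 for Prx1, so depth moved with genotype. With the log10 total as a covariate edgeR called 0 of the 234 entries, and 40 had an unadjusted p under 0.05. MicroRNAs of other cell types were present in both groups. The 5 erythroid markers summed to 23947 to 43670 CPM in Ocn and 31874 to 47291 CPM in Prx1. Of these, miR-486a-5p and miR-486b-5p were called lower in Ocn, both at a log2 fold change of -0.38. The 3 others were above 0 and not called (miR-451a 0.22, miR-144-3p 0.58 and miR-144-5p 0.17). The 3 myeloid markers summed to 39067 to 94359 CPM in Ocn and 42090 to 68987 CPM in Prx1, with none called. The 5 mesenchymal markers summed to 31426 to 43032 CPM in Ocn and 26518 to 34989 CPM in Prx1. Of these, 1 was called higher in Ocn, and 3 of the 5 had a log2 fold change above 0. Of the 4 muscle markers 2 were called lower in Ocn, while miR-1a-3p was above 0 (log2 fold change 0.34, edgeR adjusted p = 0.187). Of the 2 lymphoid markers 1 was called lower, and 0 of the 2 endothelial ones passed. Among all entries tested 13.7% were called. The liver marker miR-122-5p ran from 4.402 to 23.5 CPM in Ocn and from 0 to 1644 CPM in Prx1. The part of the cell types in the values above was not tested.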

How the data were processed

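MicroRNAs were counted in 16 EV libraries, 6 Ocn and 10 Prx1, grouped by the genotype in the labels. Per the labels' protocols, the QIAseq miRNA kit was used on 1 ng of total RNA each. The authors deposited raw counts, 1 column per library, with no normalization, as the whole numbers and differing totals show. Per the submitters' processing notes, cutadapt 1.18 and the build mm10 were used; the aligner, the counting tool and the thing counted (reads or unique molecular identifiers) are not given in those sources. The Poisson intervals (95%) cover counting error only. The 95% intervals of fold changes and strand ratios come from the edgeR and limma fits and include the spread between libraries. The design text gives 6 and 10 mice but no mouse per library, so p-values measure the spread between these libraries. Among 60 pairs of libraries within a group, the smallest chi-square per degree of freedom was 5.04, and none was counted as a repeat.

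Of 1915 entries, 973 had at least 1 count and 234 passed edgeR's filterByExpr by group. They were tested in R 4.3.3 with edgeR 4.0.16 (robust quasi-likelihood fit on genotype alone, TMM factors), and p-values were adjusted over the 234 by Benjamini-Hochberg. The SE is the size of the log2 fold change divided by the square root of F. Exact permutation tests over every split into 6 and 10 libraries (2-sided) used log2 of CPM plus 1. Correlation tests (2-sided) used 100000 permutations, or all orders within Ocn. Strand usage was tested with limma 3.58.1. Levels are CPM of the library total; spread, correlations and likeness use TMM-scaled CPM. Sequences were matched to RefSeq by name and positions to GENCODE. The scripts were tested on simulated data. Alternatives were DESeq2 1.42.0, limma voom, other scalings and filters, thinned counts, a depth covariate, a block on the replicate number, and each library left out.

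The text names all 9 members, the other strands of both clusters, the relatives past the threshold or with a member's seed, and the 3 entries most like each of miR-106b-5p, miR-93-5p and miR-25-3p; other names were chosen after their values were seen. The members and lists were chosen with earlier results of these data known. Sex per library was not used here.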

Additional observations from a re-analysis of the deposited data

How the results depend on the processing

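The values reported were recomputed under the alternatives, and of 403 recomputed values 384 kept their direction and their side of the threshold or their size. Fold changes and strand ratio differences counted as kept by sign and side of the threshold alone, so a loss of size did not count. The log2 fold change of miR-25-5p, -0.67 in the reported fit, thus counted as kept at -0.02 with depth as a covariate. The number of members called was 0, but 1 with limma voom (miR-106b-5p), 1 with the replicate block (miR-25-5p) and 0 to 1 with each library left out in turn (miR-20b-5p without Prx1 library 9). Among all entries, limma voom called 48 of 234 and the replicate block 27 of 234. Without Prx1 library 9 it was 33 of 215. With depth (log10 total) as a covariate the number of all entries called was 0. Under the same covariate the log2 fold change of miR-93-5p was -0.11, that of miR-25-3p -0.0024, that of miR-106a-5p -0.12 and that of miR-20b-5p -0.21, each of opposite sign to the reported value. With the 5 most abundant entries removed it was -0.021 for miR-93-5p and -0.0010 for miR-25-3p. With each library left out, miR-93-5p ranged from -0.023 to 0.11 and miR-25-3p from -0.015 to 0.11. The cause of these changes was not tested. With the replicate block, the log2 fold change of miR-25-5p was -0.89 (SE 0.21, edgeR adjusted p = 0.0143). In that setting 1 member hairpin, miR-25, passed for strand usage (-0.98, limma adjusted p = 0.0332), as 1 of 4 hairpins called among 44. A pairing of the libraries by replicate number was neither shown nor excluded. The deviations of the 6 same-numbered pairs correlated at 0.0184 to 0.212, 3 of 6 over 0.1, and 0 of 6 libraries matched its own number best. These 6 values, with no reference beside them, cannot exclude a weak pairing. Upper quartile scaling shifted the median log2 fold change of all entries by 0.12, with 26 calls higher and 11 lower in Ocn against 14 and 18 in the reported fit, and thinned counts gave 13 higher and 11 lower. After thinning to 225273 counts 7 of the 9 members could be tested, so depth limits miR-106a-5p and miR-363-3p most.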
